A study of Ceratotherium simum with 9 samples.

Results

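The comparison was between the 3 pre-ovulatory (P) and the 3 growing (G) libraries of follicular fluid extracellular vesicle (EV) miRNAs in the southern white rhinoceros, the far ends of the range of follicle sizes studied. Its members were the 394 miRNAs with more than 10 CPM (counts scaled to library size and adjusted by TMM, the trimmed mean of M values) in at least 2 of 3 libraries of either group, out of 3886 names in the deposited table, of which 733 had any read. In both groups 286 of them passed this filter, 43 passed in P only and 65 in G only. P follicles measured 30 to 34 mm and G follicles 11 to 17 mm, both aspirated in vivo from the same 2 stimulated females, and a dominant (D) group of 18 to 29 mm entered the fit, where it helps to estimate the spread and adds 23 miRNAs to those tested. Each library held EV RNA pooled over both females, and the methods call the libraries pooled technical replicates in one place and biological replicates in another. The p-values therefore reflect the scatter of these 6 libraries and the D libraries, which may be technical. The names are those of 185 equine, 91 bovine and 118 human miRNAs, because reads were matched to these species.

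EVs are membrane-bound particles that cells shed into the fluid around them, and part of their cargo is miRNA. A miRNA is a short RNA that pairs with mRNAs mainly through its seed, bases 2 to 8 from the 5′ end, and lowers the output of those mRNAs. Follicular fluid collects EVs of granulosa and theca cells and also receives material that crosses from blood, and its miRNAs are studied as carriers of signals between follicle cells and the oocyte.

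The sequences below are those of the miRBase entries as the study lists them, written with T, with the seed in capitals. The first set carries the 2 calls made with all libraries, with a second entry of each kind beside it. The human and equine miR-146b-5p entries share their first 22 bases and their seed, so reads of this miRNA can fall to either.
hsa-miR-146b-5p: tGAGAACTgaattccataggctg
eca-miR-146b-5p: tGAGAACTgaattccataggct
hsa-miR-4497: cTCCGGGAcggctgggc
hsa-miR-4492: gGGGCTGGgcgcgcgcc

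The next set holds the epithelial miRNAs, which include the 2 lowest log2 changes without G1. Here eca-miR-200c and bta-miR-200b share a seed, and eca-miR-200a has another.
eca-miR-205: tCCTTCATtccaccggagtctg
eca-miR-31: aGGCAAGAtgctggcatagct
eca-miR-200c: tAATACTGccgggtaatgatgga
bta-miR-200b: tAATACTGcctggtaatgatg
eca-miR-200a: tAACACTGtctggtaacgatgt

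The last set shows members whose P and G libraries did not overlap, and the bovine entry that dominated G1. The 2 miR-215 entries share their first 21 bases.
eca-miR-215: aTGACCTAtgaattgacagac
bta-miR-215: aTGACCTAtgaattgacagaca
bta-miR-142-5p: cATAAAGTagaaagcactac
bta-miR-27a-3p: tTCACAGTggctaagttccg
eca-miR-20a: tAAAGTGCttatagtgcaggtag
bta-miR-11980: aGGCAACGggcttggcggag

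The P libraries held 18384 to 47299 miRNA reads and the G libraries 20385 to 148150, the highest in G3. In the study's supplement G3 also had the most raw reads and by far the smallest share of reads passing quality control. A single read was worth 18.7 to 38.6 CPM in P, against 27.3 CPM in G1, 33.5 CPM in G2 and 5.64 CPM in G3. A member had a median of 2 or 3 reads in each P library, 2 in G1 and in G2, and 30 in G3. All 65 members that passed in G only were read in G3. At the edge of the filter, hsa-miR-374a-3p, bta-miR-196b and hsa-miR-1304-3p were inside with 11.3 CPM in the lower of the 2 libraries that passed, and eca-miR-1291a, bta-miR-106a and bta-miR-365-5p were outside with 5.64 CPM.

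G1 lay nearer to the P libraries than to the other G libraries. Across the 394 members on the log2(CPM + 10) scale, Pearson's r of G1 was 0.805, 0.758 and 0.795 with P1, P2 and P3, against 0.691 with G2 and 0.707 with G3. The r among P libraries was 0.799 to 0.844, and that of G2 with G3 was 0.782. G3 had an r of 0.745, 0.746 and 0.802 with P1, P2 and P3, so it lay nearer to P3 than to G2. For G2 these were 0.730, 0.704 and 0.723. These are descriptions across miRNAs, which share library and depth and are not independent. The G1 value lay within the range of the P libraries for 235 of the 394 members, above it for 89 and below it for 70. G1 was also set apart by 2 bovine entries, bta-miR-11980 with 35.0% of its reads and bta-miR-2478 with 9.33%. In the P libraries these took 0.348 to 1.16% and 0.267 to 1.37%, and in G2 and G3 at most 0.343% and 0.260%. The results are therefore given with and without G1. Since G1 was singled out for its position, the values without it are a description and not a second test.

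With all libraries, hsa-miR-4497 rose and hsa-miR-146b-5p fell in P, and no other member passed the test. A miRNA was called where limma on log2(CPM + 10) gave at least a 2-fold change and an adjusted p under 0.1, with Benjamini-Hochberg adjustment over all 417 miRNAs tested in the series. The call rate over those miRNAs was 0.24% in each direction. At an unadjusted p under 0.05 there were 13 higher and 18 lower, and all 31 were members. The calls needed the D libraries in the fit: with the P and G libraries alone limma called 0 members, with 23 at an unadjusted p under 0.05. Leaving out P1, P2, P3, D1, D3 or G2 also ended both calls in limma, with 19 to 31 miRNAs at an unadjusted p under 0.05.

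miR-146b-5p is a brake on NF-κB signalling, induced by inflammatory signals in many cell types. hsa-miR-146b-5p had 37.4, 77.3 and 25.2 CPM in P1, P2 and P3, against 2295, 1172 and 626 CPM in G1, G2 and G3. All P libraries were far below all G libraries, with 5 reads in P and 230 in G, and G1 was the highest. The log2 change was -4.51 (SE 0.92, limma adjusted p = 0.0589), and -4.04 without G1 (SE 1.00, limma adjusted p = 0.0794). It was below 0 in each of 22 alternatives, from -4.97 to -3.73, and was called in 13 of them. The equine entry differed from the human one in G1: eca-miR-146b-5p had 0, 77.3 and 0 CPM in P, against 54.6, 569 and 909 CPM in G. Its pooled reads, 2 in P and 180 in G, put it 44.0-fold lower in P (exact 95% interval 12.0 to 366, counting error only), and 17.0-fold lower without G3 (4.11 to 151) or 24.2-fold lower without P1 (6.61 to 202). Without P2 it was at least 23-fold lower, and without P3 29.3-fold (8.0 to 244). In limma it was not called with all libraries but was without G1, at a log2 change of -5.15 (SE 1.41, limma adjusted p = 0.0921). With the 2 entries summed, miR-146b-5p had 37.4, 155 and 25.2 CPM in P, against 2349, 1741 and 1535 CPM in G, and the G libraries were then alike. The summed log2 change was -4.84 (SE 0.94, limma adjusted p = 0.0511). A bovine entry, bta-miR-146b, was not part of this sum. It had 37.4, 77.3 and 101 CPM in P, against 54.6, 301 and 965 CPM in G, and P3 lay above G1. Its log2 change was -1.81, and -2.84 without G1.

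hsa-miR-4497 is a human entry of 17 bases, 82.4% of them G or C. It had 4335, 3131 and 5362 CPM in P1, P2 and P3, against 710, 569 and 598 CPM in G1, G2 and G3. The G libraries were close to each other and all P libraries were well above them. The log2 change was 2.72 (SE 0.56, limma adjusted p = 0.0589), and 2.82 without G1 (SE 0.55, limma adjusted p = 0.0484). It was above 0 in each of 22 alternatives, from 2.54 to 3.07, and was called in 12.

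Without G1, 8 members rose (1.92% of the 417 tested) and 11 fell (2.64%), the 2 above among them. The 8 that rose were hsa-miR-4497, hsa-miR-4492, hsa-miR-10400-5p, hsa-miR-574-5p, eca-miR-10b, eca-miR-99a, bta-miR-215 and eca-miR-450b-5p. Those that fell were hsa-miR-146b-5p, eca-miR-146b-5p, eca-miR-205, eca-miR-31, eca-miR-200c, hsa-miR-3168, eca-miR-151-5p, eca-miR-185, bta-miR-34c, eca-miR-153 and hsa-miR-378c. The last 5 of these passed the filter only through G2 and G3, the libraries that P was compared with here, so the filter favoured their fall. Among those that rose, eca-miR-450b-5p passed it only through P, so the filter favoured its rise. G1 had 0 reads for 8 of the 11 that fell and lay within the P range for 8, and of the 8 that rose it lay within the P range for 3. The P libraries were above all 3 G libraries for 5 of the 8 that rose, and below all 3 for 1 of the 11 that fell. Over all miRNAs tested, the P libraries were above all 3 G libraries for 3.6% and below them for 6.0%, and above G2 and G3 for 9.59% and below both for 21.8%.

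**Figure D1:**
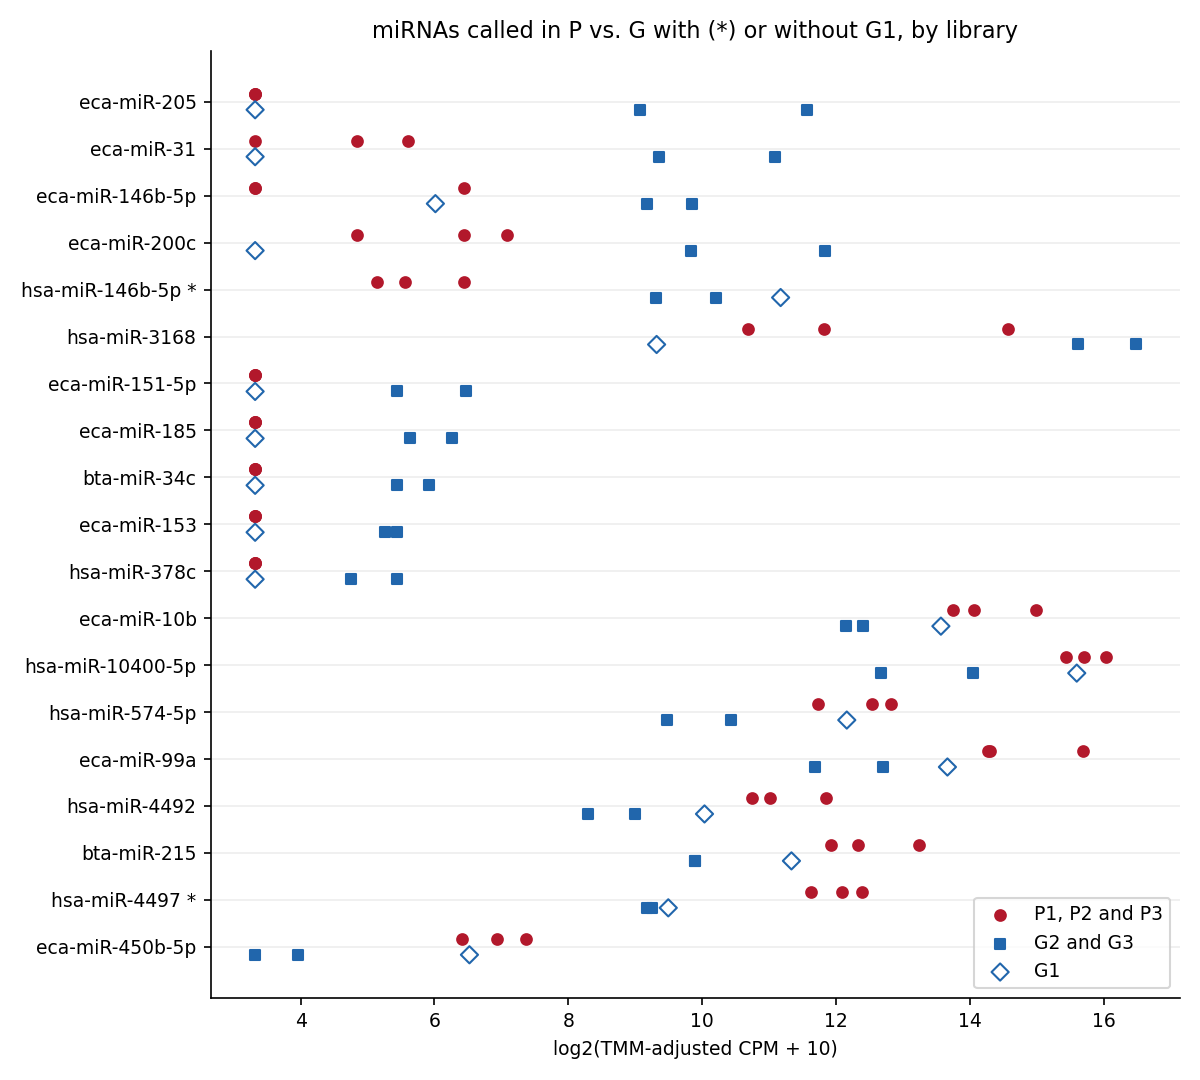
log2(TMM-adjusted CPM + 10) of the 19 miRNAs called with or without G1, with P libraries as filled circles, G2 and G3 as squares and G1 as an open diamond; an asterisk marks the 2 called with all libraries. For eca-miR-205, eca-miR-31 and eca-miR-200c the G1 diamond stood at 0 CPM with or below the P circles, while for hsa-miR-146b-5p and hsa-miR-4497 it stood with the other G libraries.

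The 2 lowest log2 changes without G1 were those of epithelial miRNAs. miR-205 and miR-31 are typical of stratified epithelium, and the miR-200 family keeps cells epithelial by acting against ZEB1 and ZEB2. eca-miR-205 had 0 reads in each P library and in G1, against 3013 CPM in G2 and 525 CPM in G3. Among the P and G libraries only G2 and G3 read it, so its membership favoured a fall. It also passed the filter in D, with 74, 61 and 65 reads in D1, D2 and D3. Its 183 reads in G put P at least 29.8-fold lower when P is given a floor of 3 reads in all, and at least 35.1-fold without G1. This bound was 16.4-fold without P1, 19.9-fold without P3, 17.3-fold without G2 and 53.8-fold without G3. The fitted log2 change, whose size depends on the pseudocount, was -4.66 with all libraries (SE 1.63, limma adjusted p = 0.337) and -6.99 without G1 (SE 1.04, limma adjusted p = 0.0142). With edgeR on recovered reads eca-miR-205 was called with all libraries too.

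eca-miR-31 had 18.7, 38.6 and 0 CPM in P1, P2 and P3, against 0, 2176 and 643 CPM in G1, G2 and G3. Its 2 reads in P against 179 in G gave a 43.8-fold lower level in P (exact 95% interval 11.9 to 364), or 68.5-fold without P2 (12.1 to 2720) and 29.2-fold without P3 (7.96 to 243). Without G1 the ratio was 51.5 (14.0 to 428) and the log2 change -5.63 (SE 1.03, limma adjusted p = 0.0408), against -3.33 with all libraries (SE 1.60, limma adjusted p = 0.550). As with eca-miR-205, G1 had no read and G2 was the highest. The third member of the stratified epithelium list, hsa-miR-203a-3p, had 0, 0 and 1410 CPM in P, against 164, 669 and 1101 CPM in G, and its groups overlapped through P3. The list as a whole had 3 of 3 members below 0, with a median of -3.33 and of -5.63 without G1, beside -0.28 and -0.40 over all miRNAs tested. None of the 3 was called with all libraries and 2 were without G1, where 2.64% of all miRNAs tested were called lower.

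The miR-200 family did not move one way. eca-miR-200c had 18.7, 77.3 and 126 CPM in P, against 0, 904 and 3635 CPM in G, and fell without G1 but not with all libraries (log2 change without G1 -4.71, SE 1.09, limma adjusted p = 0.0670). bta-miR-200b, with the same seed, had 673, 618 and 629 CPM in P, against 382, 33.5 and 9244 CPM in G, so the P libraries were nearly equal and lay between the G libraries. eca-miR-200b had 4092, 77.3 and 1586 CPM in P, against 54.6, 3916 and 12822 CPM in G. Of the 9 family members 4 were above 0 and 5 below, with a median of -0.84 and of -1.87 without G1.

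The 2 arms of miR-200a stood on opposite sides. eca-miR-200a, from the 3p arm, had 0, 0 and 75.5 CPM in P, against 2595, 201 and 1496 CPM in G, all P libraries below all G libraries (log2 change -5.52, SE 1.41, limma adjusted p = 0.204). It had 3 reads in P against 366 in G, 59.6-fold lower in P (exact 95% interval 20.2 to 291), or 32.8-fold without P1 (11.2 to 160) and at least 39.7-fold without P3. hsa-miR-200a-5p had 916, 889 and 780 CPM in P, against 0, 0 and 293 CPM in G, all P libraries above all G libraries (log2 change 4.80, SE 1.43, limma adjusted p = 0.255). It was called without G3 and in no other alternative. Reads of bta-miR-200a, also from the 3p arm, end the separation of that arm. With both 3p entries summed, miR-200a had 0, 812 and 151 CPM in P, against 2650, 301 and 2444 CPM in G, and P2 lay above G2. Of all miR-200a reads, the 5p arm made up 49 of 49, 23 of 44 and 31 of 37 in P1, P2 and P3, against 0 of 97, 0 of 9 and 52 of 485 in G1, G2 and G3. This share was looked at after its values were seen and has no test.

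Leukocyte miRNAs and regulators of inflammation lay lower in P. Of the 6 members of the inflammation list, which holds miR-146a, miR-146b and miR-155, all 6 were below 0, with a median of -1.95 and of -3.02 without G1. Of these 1 was called, hsa-miR-146b-5p, and 2 without G1, beside 0.24% and 2.64% of all miRNAs tested called lower. Their summed level was 542, 464 and 478 CPM in P, against 2595, 4519 and 4447 CPM in G, and hsa-miR-146b-5p made up most of it in G1. Without that entry the other 5 summed to 505, 386 and 453 CPM in P, against 301 CPM in G1, 3347 CPM in G2 and 3821 CPM in G3, so G1 then lay below all P libraries. eca-miR-155, a miRNA of activated lymphocytes and macrophages, had 37.4, 116 and 50.3 CPM in P, against 54.6, 1674 and 243 CPM in G, and P2 lay above G1. eca-miR-146a had 411, 77.3 and 252 CPM in P, against 137, 736 and 1507 CPM in G, where G1 lay within the P range.

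Of the 8 leukocyte members 6 were below 0, with a median of -1.99 and of -2.58 without G1, and none was called. The P libraries were below all G libraries for 3 of them, beside 6.0% of all miRNAs tested. bta-miR-142-5p, from the haematopoietic miR-142 hairpin, had 56.1, 38.6 and 25.2 CPM in P, against 792, 603 and 293 CPM in G. All P libraries were below all G libraries with G1 the highest (log2 change -3.46, SE 0.95, limma adjusted p = 0.244). The 3p arm, eca-miR-142-3p, had 0 reads in each P library, against 82.0, 368 and 67.7 CPM in G. With the floor of 3 reads, P was at least 4.24-fold lower, or at least 2.33-fold without P1, 2.82-fold without P3, 2.79-fold without G2 and 8.36-fold without G3. The 2 abundant leukocyte entries of other hairpins overlapped. hsa-miR-223-5p, from a myeloid miRNA gene, had 579, 0 and 931 CPM in P, against 464, 33.5 and 248 CPM in G. eca-miR-150, of mature lymphocytes, had 74.7, 928 and 101 CPM in P, against 0, 603 and 435 CPM in G. In bulk EV RNA, fewer cells of a type, fewer EVs from them and less of a miRNA in each EV cannot be told apart.

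None of the 5 red-cell miRNAs was called in limma, with 1 at an unadjusted p under 0.05. bta-miR-451, needed for red cell maturation, had 48135, 29411 and 37883 CPM in P, against 140777, 77859 and 30843 CPM in G, and G3 lay within the P range. eca-miR-486-5p, also of red cells and muscle, had 6876, 3594 and 1963 CPM in P, against 15955, 26277 and 6389 CPM in G, where G3 lay below P1. The 5 members had a median of -0.89, and of -0.38 without G1. Whether blood in the aspirates moved with these values was not tested.

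miRNAs of liver and gut lay higher in P. All 6 members of that list were above 0, with a median of 1.52, of 1.31 without G1 and of 1.87 under total-sum scaling. Of the 417 miRNAs tested, 179 were above 0. None was called with all libraries and 1, bta-miR-215, without G1, where 1.92% of all miRNAs tested were called higher. The P libraries were above all G libraries for 3 of the 6, beside 3.6% of all miRNAs tested. miR-192 and miR-215 share a seed and are induced by p53. bta-miR-215 had 9642, 3865 and 5135 CPM in P, against 2568, 937 and 937 CPM in G (log2 change 2.13, SE 0.65, limma adjusted p = 0.261), and without G1 its log2 change was 2.61 (SE 0.62, limma adjusted p = 0.0688). eca-miR-215 had 2093, 1275 and 2794 CPM in P, against 27.3, 66.9 and 265 CPM in G (log2 change 4.41, SE 1.31, limma adjusted p = 0.255). Both entries separated the groups completely, so the separation did not depend on which entry took the reads, and their sum had a log2 change of 2.41 (SE 0.63, limma adjusted p = 0.154). bta-miR-192 had 22498, 13604 and 11680 CPM in P, against 4699, 1975 and 10091 CPM in G (log2 change 1.75, SE 0.62, limma adjusted p = 0.337). Its equine entry did not separate the groups, with 8278, 4135 and 4027 CPM in P, against 5300, 1138 and 10204 CPM in G for eca-miR-192. eca-miR-122, the main miRNA of hepatocytes, had 17172.5, 12213 and 17796 CPM in P, against 20244, 10209 and 7309 CPM in G, and G1 was the highest of the 6 libraries.

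The family of miR-10, miR-99, miR-100 and miR-125, which includes miRNAs encoded in the HOX clusters and those of the let-7 and miR-99 clusters, lay higher in P in 11 of 13 members (median 0.62, 0.79 without G1, 0.91 under total-sum scaling). None was called with all libraries and 2 were without G1, and the P libraries were above all G libraries for 3. Over all miRNAs tested, 1.92% were called higher without G1 and 3.6% had all P libraries above all G libraries. eca-miR-99a, known to lower mTOR and IGF1R, had 52583, 20097 and 19709 CPM in P, against 12949, 6661 and 3290 CPM in G. Its log2 change was 2.06 (SE 0.69, limma adjusted p = 0.337), and 2.55 without G1 (SE 0.71, limma adjusted p = 0.0921). eca-miR-10b, encoded in the HOXD cluster, had 32271, 17083 and 13744 CPM in P, against 12103, 5423 and 4538 CPM in G. Its log2 change was 1.55 (SE 0.57, limma adjusted p = 0.360), and 1.98 without G1 (SE 0.55, limma adjusted p = 0.0921). For both, P1 was the highest library and G1 the highest of the G libraries. The bovine entry of miR-99a overlapped, with 53143, 32194 and 29400 CPM in P, against 45350, 19147 and 7642 CPM in G for bta-miR-99a-5p, where G1 lay within the P range.

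Of 11 GC-rich human entries 8 were above 0 (median 0.86, 1.37 without G1, 1.23 under total-sum scaling), with 1 called and 3 without G1. Over all miRNAs tested, 0.24% were called higher, and 1.92% without G1. hsa-miR-4492, 94.1% G or C, had 3681, 1701 and 2064 CPM in P, against 1038, 502 and 305 CPM in G, with no overlap (log2 change 2.09, SE 0.67, limma adjusted p = 0.325, and 2.55 without G1, SE 0.64, limma adjusted p = 0.0801). hsa-miR-10400-5p, the most abundant of them, had 53143, 44021 and 66830 CPM in P, against 49421, 16837 and 6473 CPM in G, and overlapped through G1. Its log2 change was 1.62 (SE 0.64, limma adjusted p = 0.485), and 2.37 without G1 (SE 0.53, limma adjusted p = 0.0670). hsa-miR-4488 went the other way, with 168, 38.6 and 805 CPM in P, against 1202, 201 and 11778 CPM in G, and G3 far above the rest. Short GC-rich entries can match fragments of other RNAs, and whether these reads are miRNAs was not tested.

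**Figure D2:**
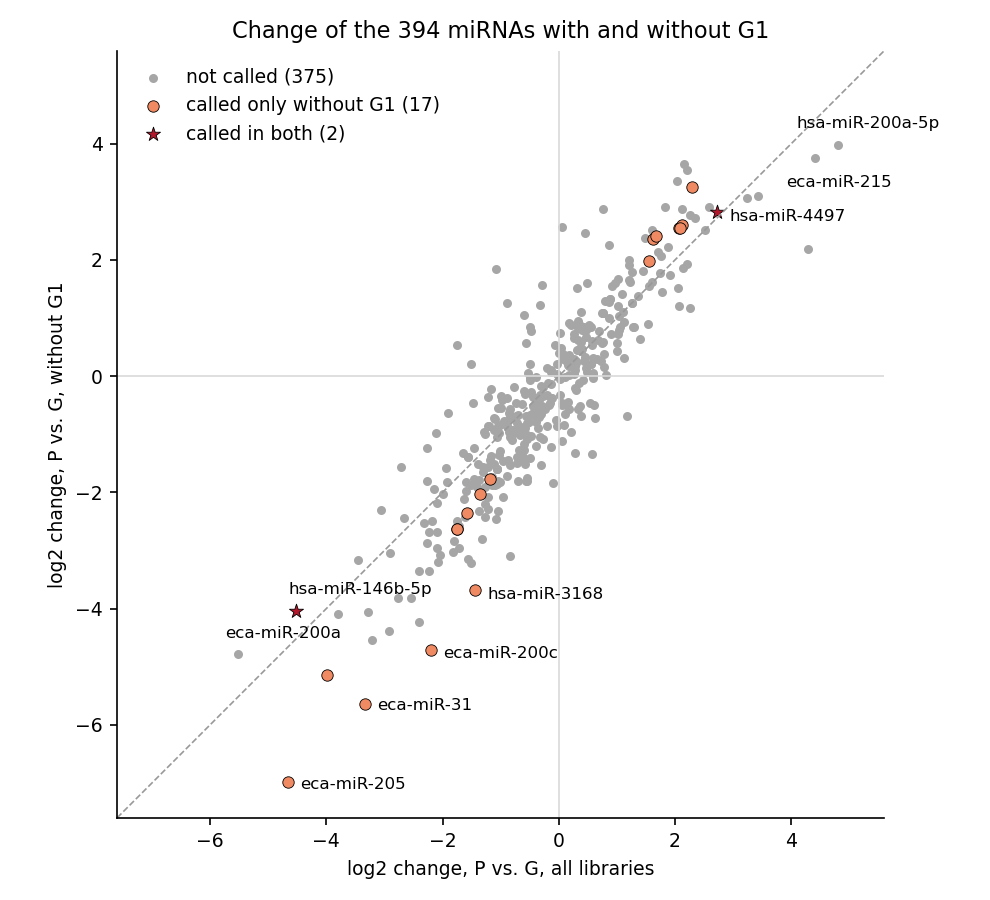
Fitted log2 change of the 394 members with all libraries (x axis) and without G1 (y axis); the dashed line marks equal values. The 2 miRNAs called in both fits, hsa-miR-146b-5p and hsa-miR-4497, lay near the line, while eca-miR-205 lay far below it, at -4.66 with all libraries and -6.99 without G1.

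Members of the miR-17-92 clusters, which promote proliferation, and of the miR-23/24/27 clusters lay lower in P. In the first list 10 of 11 were below 0 (median -1.22, -1.77 without G1, -1.03 under total-sum scaling) and none was called. The P libraries were below all G libraries for 4, beside 6.0% of all miRNAs tested. eca-miR-20a had 37.4, 193 and 176 CPM in P, against 246, 1105 and 694 CPM in G (log2 change -2.27, SE 0.93, limma adjusted p = 0.541). eca-miR-92a, the most abundant, had 2336, 3440 and 3046 CPM in P, against 4590, 11281 and 5548 CPM in G. In both, G1 was the lowest G library and yet above all P libraries. The exception was eca-miR-19b, the only one above 0, at 0.56. Other members overlapped. eca-miR-25 had 1962, 2087 and 503 CPM in P, against 3606, 3448 and 1721 CPM in G. eca-miR-17 had 0, 1005 and 25.2 CPM in P, against 27.3, 335 and 333 CPM in G. Its log2 change was -1.21, yet P2 was the highest library and the mean CPM was higher in P, at 343 against 232.

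In the miR-23/24/27 list 11 of 11 were below 0, with a median of -1.05, of -1.02 without G1 and of -0.73 under total-sum scaling, and none was called. The P libraries were below all G libraries for 3, beside 6.0% of all miRNAs tested. The summed level was 7530, 8232 and 7577 CPM in P, against 15108, 13222 and 20317 CPM in G, with no overlap. bta-miR-27a-3p, which acts in lipid metabolism and angiogenesis, had 206, 193 and 227 CPM in P, against 1858, 1004 and 1383 CPM in G. The P libraries agreed closely and G1 was the highest (log2 change -2.66, SE 0.69, limma adjusted p = 0.204). The equine entry overlapped and varied widely in P, where it held more reads, 150 against 25 for the bovine entry. eca-miR-27a had 2074, 193 and 856 CPM in P, against 1776, 1941 and 959 CPM in G (log2 change -1.07). eca-miR-27b had 2784, 5333 and 2819 CPM in P, against 5874, 6862 and 11936 CPM in G. eca-miR-24 overlapped, with 1943, 773 and 3146 CPM in P, against 4289, 1540 and 2020 CPM in G.

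**Figure D3:**
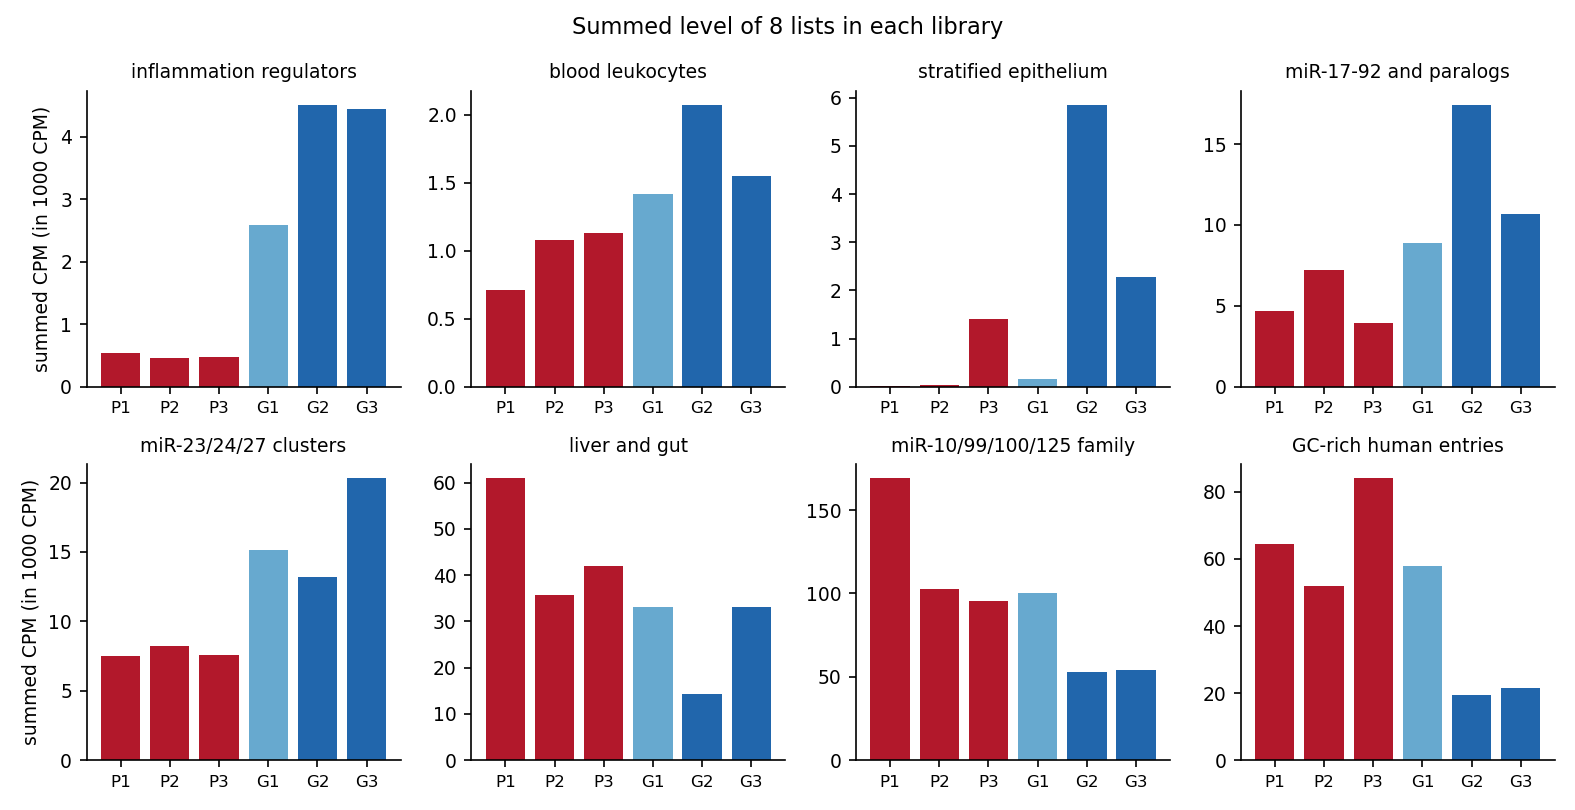
Summed TMM-adjusted CPM of 8 lists in P1 to P3 (red), G1 (light blue), and G2 and G3 (dark blue). The inflammation regulators stood at 464 to 542 CPM in P against 2595 to 4519 CPM in G, although without hsa-miR-146b-5p G1 had 301 CPM, below all P libraries, and the miR-23/24/27 clusters at 7530 to 8232 CPM in P against 13222 to 20317 CPM in G.

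Several further members had groups that did not overlap and an unadjusted p under 0.05, and none of them was called. eca-miR-206, a skeletal muscle miRNA, had 2579, 3826 and 4455 CPM in P, against 0, 1573 and 367 CPM in G (log2 change 4.29, SE 1.90, limma adjusted p = 0.550), and its change without G1 was 2.20. eca-miR-378 had 13 reads in P and 2 in G, 13.3-fold higher in P (exact 95% interval 3.01 to 121) or at least 2.42-fold without G3, but with bta-miR-378, which held most reads of that name, the sum had a log2 change of 0.35. bta-miR-29a, which acts on collagen mRNAs, had 112, 116 and 252 CPM in P, against 984, 435 and 502 CPM in G (log2 change -1.94, SE 0.88, limma adjusted p = 0.550), and its equine entry, eca-miR-29a, had 13 reads in P and 290 in G, with overlap, at a log2 change of -2.77. hsa-miR-7706, hsa-miR-181c-3p and hsa-miR-7974 had 0 reads in P and 6, 7 and 3 reads in G, and with the floor of 3 reads in P the bounds were 0.978 for hsa-miR-7706 and 1.14 for hsa-miR-181c-3p. These entries passed the filter only through G, so their place below G is no independent result.

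Of the calls made without G1, 5 rested on few reads. eca-miR-151-5p, eca-miR-185, bta-miR-34c, eca-miR-153 and hsa-miR-378c had 0 reads in every P library and in G1, and 1 or 2 reads in G2. Their pooled reads in G were 15, 9, 10, 6 and 4, mostly in G3. They were tested only because G2 and G3 passed the filter, so their direction without G1 is no independent result. Without G1 and with the floor of 3 reads, P was at least 2.88-fold lower for eca-miR-151-5p and 1.73-fold for eca-miR-185. It was at least 1.92-fold lower for bta-miR-34c and 1.15-fold for eca-miR-153, and for hsa-miR-378c the bound of 0.767 does not set a direction. These bounds hold for the entries alone, since miR-185, miR-34c and miR-378c were read in P under another species. bta-miR-185 had 953, 232 and 151 CPM in P, against 54.6, 435 and 1168 CPM in G (log2 change 0.05, and -1.11 without G1). eca-miR-34c had 0, 155 and 75.5 CPM in P, against 82.0, 66.9 and 531 CPM in G. bta-miR-378c had 18.7, 38.6 and 75.5 CPM in P, against 27.3, 33.5 and 158 CPM in G. eca-miR-450b-5p, called higher without G1, had 112, 155 and 75.5 CPM in P, against 82.0, 0 and 5.64 CPM in G, which is 13 reads against 4, and its log2 change without G1 was 3.26 (SE 0.85, limma adjusted p = 0.0910). This entry was tested only because P passed the filter, so its direction is no independent result either. hsa-miR-574-5p had 5905, 7189 and 3373 CPM in P, against 4562, 1372 and 700 CPM in G, and overlapped through G1 (log2 change without G1 2.40, SE 0.65, limma adjusted p = 0.0921). hsa-miR-3168 was the most abundant of the calls lower in P, with 3588, 24348.5 and 1636 CPM in P, against 628, 50076 and 91010 CPM in G. Without G1 its log2 change was -3.69 (SE 0.93, limma adjusted p = 0.0801) and with it -1.44 (SE 1.47, limma adjusted p = 0.803). G1 lay below all P libraries for this entry, and it belongs to a list of entries that resemble fragments of other small RNAs.

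None of the ovarian and stromal miRNAs passed the test. bta-miR-202, a gonadal somatic cell miRNA, had reads in all 6 libraries, with 3102, 889 and 352 CPM in P, against 2431, 937 and 497 CPM in G. The other gonadal entries were low, at up to 77.3 CPM in P and 201 CPM in G for eca-miR-224, and up to 25.2 CPM in P and 27.3 CPM in G for eca-miR-383. eca-miR-21, induced by luteinizing hormone in mouse granulosa cells, had 20947, 30416 and 18929 CPM in P, against 22539, 45222 and 34934 CPM in G, with overlap through G1. Of the 12 theca and stroma members 11 were above 0 (median 0.58, 0.70 without G1, 0.86 under total-sum scaling), with none called and none free of overlap. eca-miR-143, of smooth muscle and theca, had 21881, 18319 and 22101 CPM in P, against 18714, 6561 and 14538 CPM in G. eca-miR-126-3p, of endothelium, had 5550, 4445 and 5236 CPM in P, against 7486, 7598 and 10288 CPM in G, all P libraries below all G libraries, at a log2 change of -0.73.

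The remaining lists had no call with all libraries. Of 34 members of the imprinted DLK1-DIO3 cluster 21 were above 0 and 13 below (median 0.12), and of 15 let-7 family members 10 were above 0 (median 0.37). Among the let-7 miRNAs, bta-let-7i had 26104.5, 23807 and 22302 CPM in P, against 29833, 28084 and 31971 CPM in G, a log2 change of -0.32 without overlap. Of 14 neural members 10 were below 0 (median -0.76), with eca-miR-153 called without G1. The median was -0.51 over 12 members of the list of miR-181, miR-221 and miR-222, -0.49 over 5 of the miR-183 cluster, 0.06 over 17 fragment-like entries, 0.14 over 4 muscle entries and 0.02 over 4 of the miR-506 family. Leaving out G1 turned the muscle and miR-506 medians, to -0.39 and -0.25. The granulosa LH list (6 members) had a median of -0.13 and the gonadal list (4 members) one of -0.03, and total-sum scaling turned both, to 0.17 and 0.27. Total-sum scaling raised the median of all miRNAs tested by 0.26, to -0.03, and the lists are to be read against that shift.

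**Figure D4:**
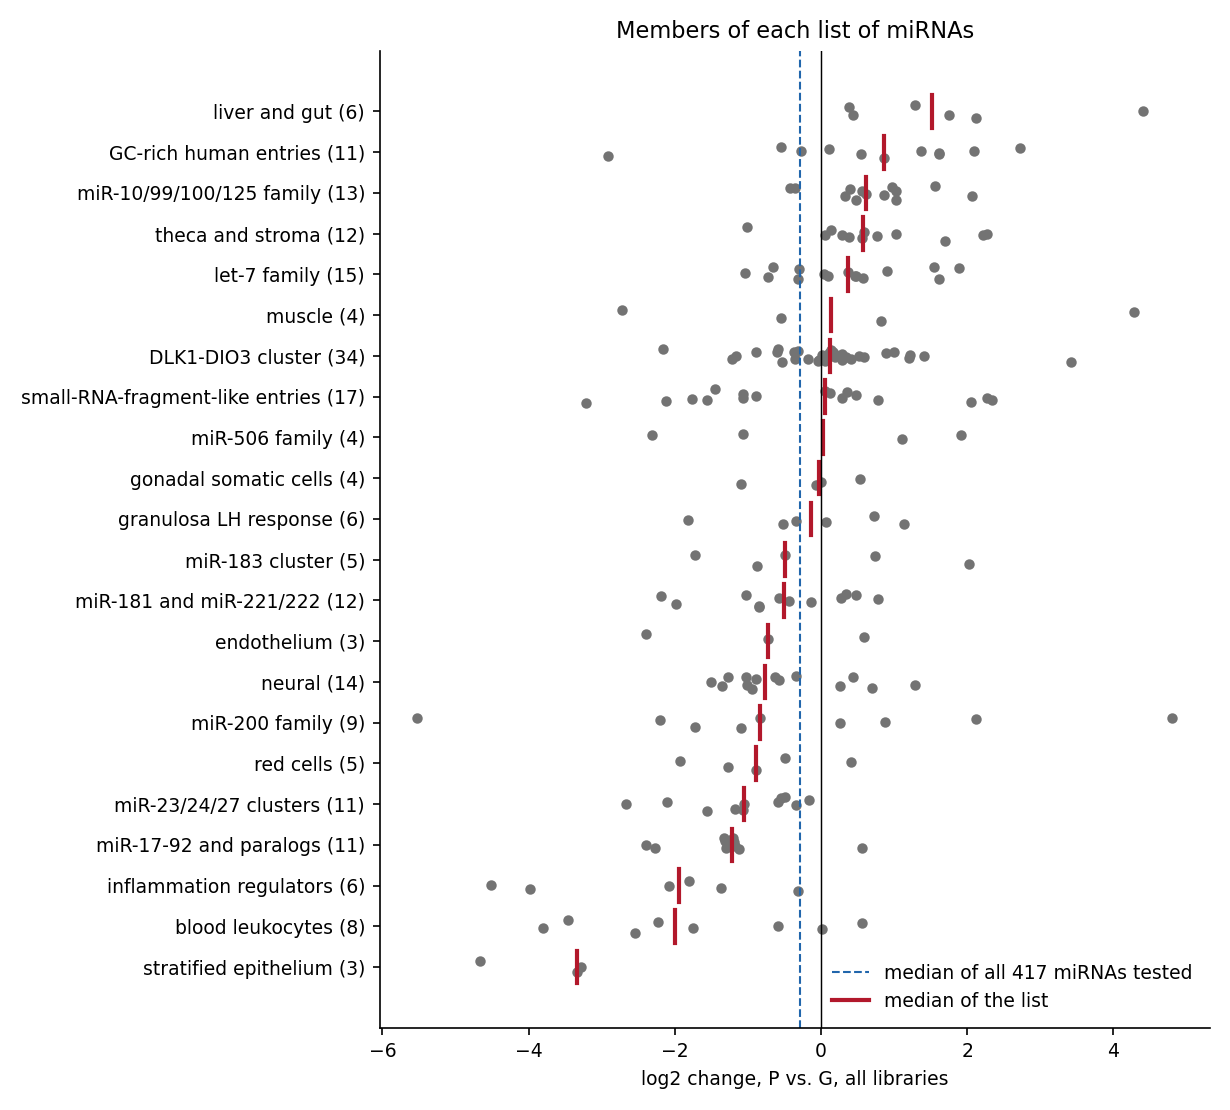
log2 change, P vs. G with all libraries, of the members (points, jittered vertically) of each list, with the number of members in brackets, the list's median as a red bar and the median of all 417 miRNAs tested as a dashed line at -0.28. The 3 lowest medians were those of stratified epithelium (-3.33), blood leukocytes (-1.99) and inflammation regulators (-1.95), and the highest that of liver and gut (1.52).

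Of the most abundant members, eca-miR-148a led every P library with 11.0 to 13.6% of the reads, and had 119853, 78456 and 86338 CPM in P, against 154683, 63398 and 39686 CPM in G, with overlap. eca-miR-26a, a widely expressed miRNA, had 25712, 14764 and 13718.5 CPM in P, against 12594, 18109 and 31621.5 CPM in G, also with overlap. The 10 members with the highest mean CPM over the P and G libraries together held 40.0 to 41.6% of the reads of each P library, against 73.1%, 47.3% and 32.9% in G1, G2 and G3. The spread was wider in G: the median SD of a member on the log2 scale was 1.04 in P and 1.25 in G, and 0.77 in P and 1.23 in G over the 167 members with at least 100 reads.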

How the data were processed

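Per the methods, the authors purified EVs on an ultracentrifuge and size exclusion columns, pooled those of both females, sequenced small RNA libraries, and in CLC Genomics Workbench (version 21) trimmed reads and matched those of at least 15 bases, with up to 2 mismatches, to miRBase (release 22) entries of horse, cattle and human. bcl2fastq and DESeq2 are also named in the submitters' processing notes, without a role for DESeq2. The deposited values are a signal: CPM that the authors adjusted by TMM, so libraries do not sum to one total. Authors' columns of fold changes and p-values were not used.

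Whole reads were recovered by dividing each library by its smallest value (100% of values whole within 0.01 read). The 3 P, 3 G and 3 D libraries were grouped by the labelled follicle stage. The 417 miRNAs above 10 CPM in at least 2 of 3 libraries of a group were fitted with limma 3.58.1 (R 4.3.3, trended variance) over the 9 libraries together on log2(CPM + 10), a scale that understates the change of low miRNAs. Calls used the study's thresholds. A positive change means higher in P. edgeR 4.0.16 (quasi-likelihood) and DESeq2 1.42.0 on recovered reads, other pseudocounts (1 and 50 CPM), filters, scalings, a replicate block, summed species entries and leaving out each library were alternatives, and those combined with leaving out G1 were added after the data were seen. Steps were tested on simulated data. Against 0 reads in a group a fold change is a bound with 3 reads as the floor, and with 1 to 3 reads it is a ratio with its exact 95% interval, both for counting error only. Python 3.11.15, with scipy 1.17.1, pandas 2.3.3, matplotlib 3.10.9 and numpy 2.4.6, did the rest.

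The members and the 22 lists were chosen with earlier results of these data known, and lists were matched by miRNA name, so entries of several species or arms count separately. Named miRNAs were those called with or without G1, the 10 highest and 10 lowest changes among members without overlap and with an unadjusted p under 0.05, up to 4 members per list by mean CPM, and the 10 most abundant. eca-miR-19b, eca-miR-29a, bta-miR-200a, bta-miR-378, bta-miR-146b, eca-miR-223, bta-miR-185, eca-miR-34c, bta-miR-378c and the members at the edge of the filter were named outside this rule, after their values were seen.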

Additional observations from a re-analysis of the deposited data

Results flagged for a closer look

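Outside the members, 6 miRNA entries that missed the filter had more than 3 reads in 1 library of each group, above the limit that a count of 0 allows. bta-miR-6529a had 45 reads in P1 against 25 in G1 and 0 in the other P and G libraries, the largest such count. bta-miR-195 had 7 reads in P3 against 39 in G3, and hsa-miR-124-5p had 4 in P1 against 19 in G3. hsa-miR-193b-5p had 27 reads in P3 against 4 in G3, and hsa-miR-7975 had 28 in P1 against 5 in G2. hsa-miR-92b-5p had 37 reads in P2 against 4 in G3. Each was read in 1 P and 1 G library alone, so none has a spread within its group.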

How the results depend on the processing

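No named miRNA that was called changed sign under the alternatives examined for it, up to 22, which leave out those combined with leaving out G1. Some came near 0, such as eca-miR-185 at -0.03 and hsa-miR-3168 at -0.11. The 2 calls (1 higher, 1 lower) became 0 without filter (35 at an unadjusted limma p under 0.05), with the P and G libraries alone in the fit (23), under total-sum scaling (31) and at an adjusted p under 0.05 (31 unadjusted). They became 1 (0 higher, 1 lower) without a variance trend, 3 (1 and 2) with edgeR under either scaling, and 14 (6 and 8) with DESeq2, where the adjusted p was missing for 189. Leaving out 1 library gave 0 to 19 calls (0 to 8 higher, 0 to 11 lower): 0 without P1, P2, P3, D1, D3 or G2 (19 to 31 unadjusted), 2 without D2, 3 without G3 and 19 without G1. The 19 calls without G1 (8 higher, 11 lower) became 5 (0 and 5) under total-sum scaling, 12 (5 and 7) with species entries summed, 14 (5 and 9) with edgeR, 28 (12 and 16) with DESeq2, 24 (7 and 17) at a pseudocount of 1 CPM, 16 (8 and 8) at 50 CPM, and 0 with the P and G libraries alone (69 at an unadjusted limma p under 0.05). Leaving out a further library with G1 gave 1 to 24 calls (0 to 10 higher, 1 to 15 lower), with 1 call each without P1, D1 or D3, and 3 without P3. Without G1 and either G2 or G3, where the highest of these counts arose, the 1 G library left is assumed to vary like the other groups. The causes were not tested. Same-numbered P and G libraries correlated in their deviations at 0.118, 0.046 and 0.142, so the numbers are not taken to pair them, although each correlated best with its own number. With the replicate block 3 were called (1 higher, 2 lower), eca-miR-200a being added. At these depths, 33 members had no read in P and 7 none in G.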
